A study of Mus musculus with 8 samples.

Results

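The variable genes of the T cell receptor alpha and beta chains were read in bulk RNA counts of cultured OT-I CD8+ T cells. Every gene of the deposited table whose symbol starts with Trav or Trbv was taken, which gave 165 of 56805 genes, 130 Trav genes and 35 Trbv genes. The study compared OT-I T cells transduced with a guide RNA against Elovl1 (sgElovl1) with cells transduced with a non-targeting guide (sgNT), to learn how loss of this fatty acid elongase alters CD8+ T cells. The labels name 8 samples, in which each group has 2 replicates in each of 2 experiments, and the deposited table holds 4 columns, because counts of replicate mice were merged within an experiment. Both groups came from OT-I:Rosa26-Cas9 mice on a C57BL/6J background, bred from Rag2/OT-I mice and animals with Cas9 knocked in at Rosa26, in which every cell type makes Cas9. The mice were of both sexes and 6 to 12 weeks old. In both groups CD8+ T cells of spleen and lymph nodes were activated with CD3/CD28 beads, cultured with IL-2, IL-7 and IL-15, given a lentiviral vector with a CD90.1 reporter, and sorted on CD90.1 3 days after transduction, on day 7 of activation.

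A T cell receptor is a pair of chains, and each chain is encoded by a variable, a joining and a constant gene that are brought together by DNA recombination in the thymus, the beta chain with a diversity gene in addition. The variable gene encodes most of the part that meets the peptide and its presenting molecule, and a mature T cell normally shows a single beta chain on its surface. OT-I mice carry rearranged receptor transgenes, with a V alpha 2 chain, of the family now called Trav14, and a V beta 5 chain, of the family now called Trbv12, so that nearly all of their CD8+ T cells share 1 receptor. The mouse Trav cluster on chromosome 14 holds stretches that are near copies of each other, whose genes carry a d or an n in their names, and the Trbv cluster on chromosome 6 is smaller and has few such copies. RefSeq annotated 114 Trav genes as variable segments and 16 as pseudogenes, and 22 Trbv genes as variable segments and 13 as pseudogenes.

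The last 120 bases of the transcripts of the 2 detected Trbv12 genes are shown because nearly all beta counts fell on 1 of them. They are GENCODE M21 sequences of build GRCm38, written 5′ to 3′, from chromosome 6, and capitals in Trbv12-2 mark the 9 bases that differ from Trbv12-1.
Trbv12-1: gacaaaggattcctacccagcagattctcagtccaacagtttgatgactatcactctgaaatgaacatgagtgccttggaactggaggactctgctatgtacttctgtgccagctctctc
Trbv12-2: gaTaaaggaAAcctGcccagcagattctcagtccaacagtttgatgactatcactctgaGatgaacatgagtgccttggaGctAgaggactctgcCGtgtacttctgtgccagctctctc
The whole transcripts were 88.3% identical over 385 aligned bases, so that many reads from one can be told from the other.

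The same stretch of 6 Trav14 genes, from chromosome 14, is shown because members of this family differ at few bases and some at none, and a read from identical stretches cannot be assigned to 1 gene. Capitals mark bases that differ from Trav14d-1, which are 0 in Trav14n-1, 3 in Trav14-1, 4 in Trav14-2, 2 in Trav14-3 and 3 in Trav14d-3-dv8.
Trav14d-1: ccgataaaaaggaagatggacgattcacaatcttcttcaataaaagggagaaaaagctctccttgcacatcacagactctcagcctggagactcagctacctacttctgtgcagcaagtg
Trav14n-1: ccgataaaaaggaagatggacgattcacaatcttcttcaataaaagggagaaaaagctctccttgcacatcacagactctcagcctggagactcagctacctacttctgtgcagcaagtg
Trav14-1: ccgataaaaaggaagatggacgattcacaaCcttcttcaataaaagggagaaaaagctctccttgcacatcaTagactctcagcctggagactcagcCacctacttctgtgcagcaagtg
Trav14-2: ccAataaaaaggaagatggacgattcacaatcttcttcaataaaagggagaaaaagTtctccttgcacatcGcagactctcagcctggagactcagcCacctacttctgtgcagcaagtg
Trav14-3: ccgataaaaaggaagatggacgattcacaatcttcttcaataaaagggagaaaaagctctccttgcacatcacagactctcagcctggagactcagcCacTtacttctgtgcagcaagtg
Trav14d-3-dv8: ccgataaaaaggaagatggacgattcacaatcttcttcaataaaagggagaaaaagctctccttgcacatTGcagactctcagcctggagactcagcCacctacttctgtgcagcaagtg
Over their whole length of 415 bases the transcripts of Trav14d-1 and Trav14n-1 were identical, and so were those of Trav14d-2 and Trav14n-2 over 464 bases. The other pairs within the family were 93.2% to 97.7% identical.

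Column totals were 57341720 and 51621372 counts in sgElovl1 cells of experiments 2 and 1, and 49068952 and 63623476 counts in sgNT cells of experiments 2 and 1, so that a count of 0 allowed up to 0.0472 to 0.0611 CPM (counts scaled to a column total of 1000000, with 3 counts as the floor, for counting error only). Elovl1, the targeted gene, was at 53.9 and 62.4 CPM in sgElovl1 cells and at 95.2 and 110.0 CPM in sgNT cells, a log2 fold change of -0.80 (SE 0.07, edgeR adjusted p = 3.80e-28), in the direction of the labels. Of 16006 genes tested, 192 were called between the guides and 8896 between the experiments, so that the experiment was the main difference between columns. The summed level of 8 CD8 alpha beta T cell genes was 5093 to 6132 CPM, all 8 detected. The 8 B cell markers summed to 809 and 763 CPM in experiment 2 (sgElovl1 and sgNT) and to 447 and 405 CPM in experiment 1, nearly all of it Ighm, the constant gene of the immunoglobulin M heavy chain, at 394 to 785 CPM, while Ms4a1 and the kappa constant gene Igkc had no count and Pax5 at most 2 counts. The 8 myeloid markers summed to 13.4 and 17.5 CPM in experiment 2 and to 3.56 and 3.73 CPM in experiment 1, mostly Itgax, and C1qa and Siglech had no count. The 5 CD4 T cell markers summed to 202 and 191 CPM in experiment 2 and to 120 and 95.8 CPM in experiment 1, led by Ctla4 (4149 to 9498 counts) and Zbtb7b (1334 to 1617 counts), with Foxp3 at 271 to 585 counts and Cd4 at 0 to 6 counts. The 4 natural killer cell markers summed to 152 and 157 CPM in experiment 2 and to 235 and 255 CPM in experiment 1, nearly all of it Eomes, which activated CD8+ T cells also make, and Ncr1 and Klra8 had no count. Gamma delta T cell markers summed to 416 and 392.3 CPM in experiment 2 and to 407 and 372 CPM in experiment 1, mostly the delta constant gene Trdc. The part of these genes in the differences between the experiments was not tested.

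The beta variable counts lay almost wholly on 1 gene. Trbv12-1, which RefSeq lists as the V beta 5.2 gene, had 10886 and 14208 counts in sgElovl1 cells of experiments 2 and 1, against 11721 and 17426 counts in sgNT cells of experiments 2 and 1. It held 99.3% and 99.6% of all Trbv counts in the sgElovl1 columns and 99.6% in both sgNT columns, with a mean of 99.5% ± 0.150 (SD, n = 4 columns). The Wilson 95% intervals of these shares ran from 99.1% to 99.7% over the 4 columns, and they cover counting error only. In every column the beta counts thus lay on a V beta 5 gene, a member of the family of the OT-I beta chain. Divided by gene length, the mean share of Trbv12-1 was 99.5%.

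The remaining Trbv genes were close to the floor. Trbv12-2, the V beta 5.1 gene of the same family, had 12 and 12 counts in sgElovl1 cells against 7 and 14 counts in sgNT cells of experiments 2 and 1, and the third member, Trbv12-3, had none. Trbv13-2, a V beta 8 gene, had 9 and 6 counts against 10 and 18 counts, and Trbv19, the V beta 6 gene, had 8 and 10 counts against 2 and 13 counts, in the same order. In CPM, Trbv13-2 was lower in both sgElovl1 columns, Trbv19 was lower in both experiment 2 columns, and Trbv12-2 overlapped between the guides; none of the 3 was called in either contrast. Outside the Trbv12 family lay 0.584% and 0.302% of the Trbv counts in sgElovl1 cells and 0.297% and 0.360% in sgNT cells of experiments 2 and 1. Of the 32 genes outside the family 12 were detected, with at least 3 counts in at least 1 column, 5 had 1 or 2 counts in a column, and 15 had no count at all. Some of the 12 were seen in few columns. Trbv3 had 9 and 1 counts in the sgElovl1 columns and none in the sgNT columns, and Trbv15 had 0 and 10 counts in the sgElovl1 columns against 3 and 0 counts in the sgNT columns of experiments 2 and 1. Trbv31, which lies beyond the constant genes, had 7 and 3 counts against 5 and 11 counts.

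**Figure D1:**
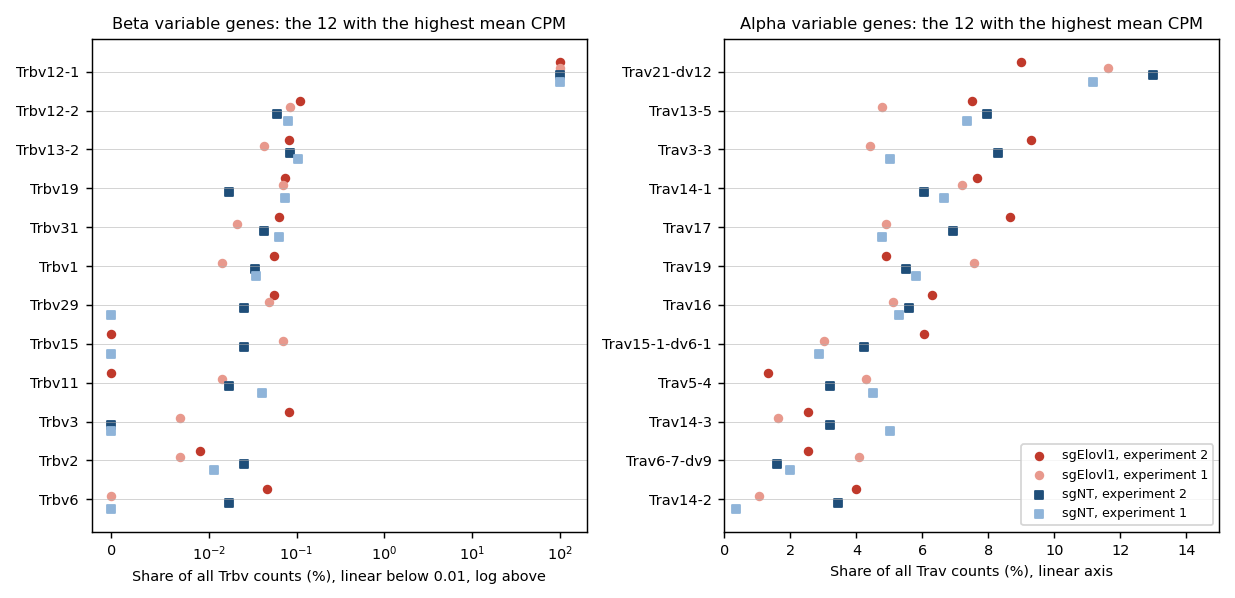
Share of the counts of its locus held by each of the 12 Trbv genes (left, linear below 0.01% and log above) and the 12 Trav genes (right, linear) with the highest mean CPM, 1 point per column, sgElovl1 as circles and sgNT as squares, dark for experiment 2 and light for experiment 1. Trbv12-1 stands at 99.3% to 99.6% with every other Trbv gene at or under 0.109%, whereas no Trav gene exceeds 12.99%.

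The alpha variable counts were few and spread over many genes. All 130 Trav genes together had 1226 and 860 counts in sgElovl1 cells and 1255 and 1155 counts in sgNT cells of experiments 2 and 1, which was 21.4 and 16.7 CPM against 25.6 and 18.2 CPM, while the 35 Trbv genes came to 191 and 276 CPM against 239.7 and 275 CPM. In 4 columns 62 Trav genes were detected, 31 of them in every column, and 51 had no count. For Trbv the same numbers were 14, 4 and 16. The effective number of genes (the inverse of the sum of squared shares, which is 1 when a single gene holds all counts) was 18.7 and 21.6 in sgElovl1 cells and 18.7 and 22.3 in sgNT cells for Trav, against 1.01 in every column for Trbv.

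Trav21-dv12, a gene that can also serve in delta chains, was the highest Trav gene in 3 of 4 columns, with 110 and 100 counts in sgElovl1 cells against 163 and 129 counts in sgNT cells of experiments 2 and 1. It held 11.2% ± 1.67 of the Trav counts (SD, n = 4 columns) and 7.97% once counts were divided by gene length. Trav3-3 led the remaining column, sgElovl1 of experiment 2, with 9.30%. Trav13-5 and Trav14-1 each held a mean of 6.90%, Trav3-3 6.76%, Trav17 6.31%, Trav19 5.94%, Trav16 5.56% and Trav15-1-dv6-1 4.04%. The lowest share of Trav21-dv12, 8.97%, lay above the highest of Trav13-5, 7.97%, and from Trav13-5 on the shares of neighbours in this order of counts overlapped. These 8 genes with the highest mean CPM held 59.3% and 48.6% of the Trav counts in sgElovl1 cells and 57.5% and 48.9% in sgNT cells of experiments 2 and 1, a higher share in both experiment 2 columns. By family, Trav13 held a mean of 13.1% and Trav16 9.33% of the Trav counts.

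The Trav14 family, the V alpha 2 genes, did not stand out as Trbv12-1 did. Its 9 genes had 201 and 109 counts in sgElovl1 cells and 179 and 158 counts in sgNT cells of experiments 2 and 1. That was 16.4% and 12.7% of the Trav counts in sgElovl1 cells and 14.3% and 13.7% in sgNT cells, a mean of 14.25% ± 1.57 (SD, n = 4 columns), with Wilson 95% intervals from 10.6% to 18.6%. The Trav14 family had the highest mean share of all Trav families, close to the 13.1% of Trav13. No Trav gene or family held most of the Trav counts. The Trav counts thus did not lie mostly on the family of the OT-I alpha chain, while the beta counts lay on a V beta 5 gene. They were few, at 1.58 to 3.33 per 100 counts of the alpha constant gene Trac. Which alpha chain the cells carry is not read from them. The paper detected OT-I cells in vivo with antibodies to both OT-I chains. Reads from identical stretches of the Trav14 family cannot be assigned to 1 gene, and their part in its share was not tested. Trav14-1 was the family's highest member, with 94 and 62 counts against 76 and 77 counts. Trav14-3 had 31 and 14 counts against 40 and 58 counts, and Trav14-2 had 49 and 9 counts against 43 and 4 counts. In CPM the experiments did not overlap for Trav14-1 and Trav14-2 and overlapped for Trav14-3, and of these only Trav14-2 was called. Trav14d-3-dv8 had 18 and 20 counts against 7 and 14 counts, and Trav14n-3 had 7 and 3 counts against 11 and 5 counts. The remaining 4 members were the identical pairs shown above: Trav14d-1 had 1 and 0 counts against 2 and 0 counts, Trav14n-1 had 1 and 1 counts against none, and Trav14d-2 and Trav14n-2 had none in any column.

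Trav genes whose sequence was wholly shared with other genes had few counts. Each transcript was cut into all its windows of 150 bases, the length of 1 sequencing read, and each window was looked for in the transcripts of every other gene of GENCODE M21. In 40 Trav genes every window occurred elsewhere too, and these had 34 counts in all, with 2 detected. In 38 Trav genes some windows did, with 814 counts and 24 detected, and in 50 genes none did, with 3330 counts and 35 detected. The other 2 Trav genes had no transcript to cut, and Trav13-5, with 318 counts, was 1 of them. The identical pairs Trav14d-1 with Trav14n-1 and Trav14d-2 with Trav14n-2 had all windows shared, while Trav14-1, Trav14-2 and Trav14d-3-dv8 had none shared. Of the 35 Trbv genes 32 had no shared window, and they held all 54491 Trbv counts. No source at hand says how reads with several alignments were handled, and the part of shared sequence in these counts was not tested.

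**Figure D2:**
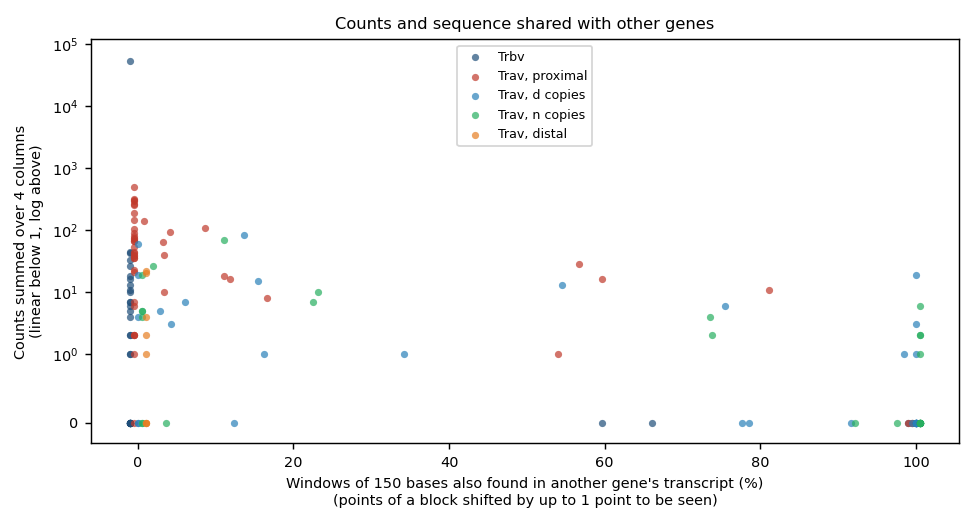
Counts of each of the 163 genes with a GENCODE M21 transcript, summed over the 4 columns (linear below 1, log above), against the percentage of its 150-base windows also found in another gene's transcript, coloured by locus and by place in the Trav cluster. Trbv12-1 stands alone at the top left, and the 40 Trav genes at 100% hold 34 counts together.

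Along the Trav cluster the counts lay at the end nearest the joining and constant genes. The 48 genes that follow the repeated stretches (the proximal genes) held 95.7% and 84.5% of the Trav counts in sgElovl1 cells and 94.5% and 82.9% in sgNT cells of experiments 2 and 1, and 39 of them were detected. Within these, the 24 later in gene order held a mean of 67.2% of all Trav counts and the 24 earlier ones 22.2%. The 40 d copies had 27 and 83 counts in sgElovl1 cells against 26 and 105 counts in sgNT cells, with 10 detected. The 34 n copies had 22 and 34 counts against 35 and 71 counts, also with 10 detected. At the far end, the 8 distal genes had 4 and 16 counts against 8 and 21 counts. In CPM, the proximal genes were at 20.5 and 24.2 in experiment 2 against 14.1 and 15.1 in experiment 1, and the d copies at 0.471 and 0.530 in experiment 2 against 1.61 and 1.65 in experiment 1 (sgElovl1 and sgNT), so that the experiments did not overlap and differed in opposite directions. Without Trav16d-dv11 the d copies were at 0.453 and 0.428 CPM in experiment 2 against 0.833 and 1.05 CPM in experiment 1. Without Trav16n the n copies were at 0.279 and 0.652 CPM in experiment 2 against 0.174 and 0.566 CPM in experiment 1, which overlapped. The median share of windows found elsewhere was 99.5% for the d copies, 100% for the n copies and 0% for the proximal genes.

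**Figure D3:**
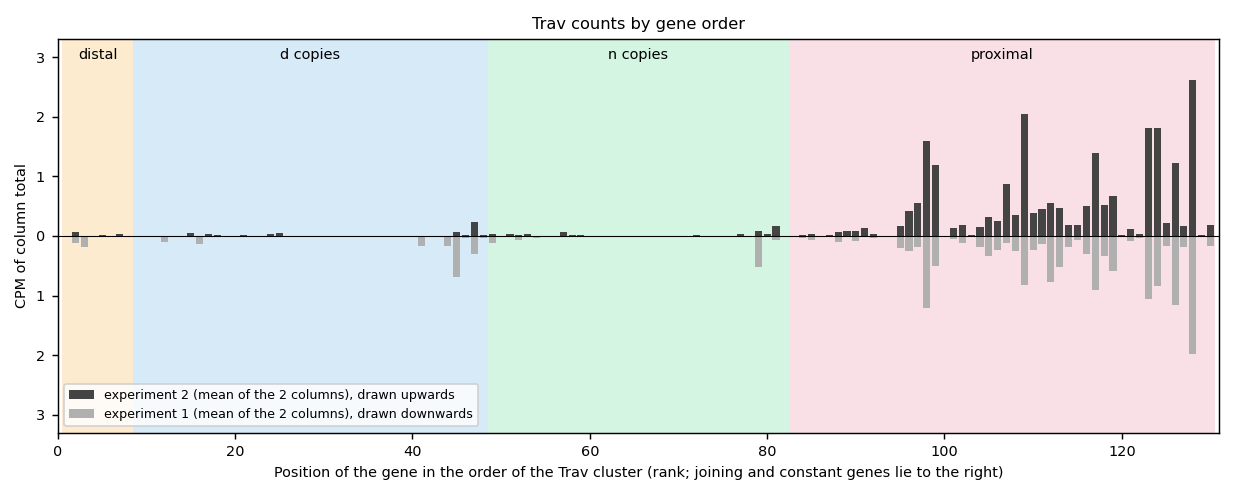
Mean CPM of the 2 experiment 2 columns (dark, upwards) and of the 2 experiment 1 columns (light, downwards) for each of the 130 Trav genes by rank along the cluster, with the distal genes, the d copies, the n copies and the proximal genes shaded. The bars stand mainly among the 48 proximal genes, and the tallest is Trav21-dv12.

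Between the guides no Trav or Trbv gene was called. Only genes that passed the filter on low counts could be tested, 31 Trav and 4 Trbv genes or 35 of 165. With edgeR, 0 of these 35 genes were called at an adjusted p under 0.05 (background of 1.20% of all genes tested, 0.762% higher and 0.437% lower in sgElovl1 cells), 1 had an unadjusted p under 0.05, and DESeq2, which gave an adjusted p for 1 of them, called 0. Of the 35, 14 had a log2 fold change above 0 and 21 below 0, with a median of -0.14 against -0.01 over all genes tested. Their median SE was 0.79, against 0.11 over all genes tested, so that only large changes of most Trav genes were detectable at this depth. In bulk RNA fewer cells with a transcript and less of it per cell cannot be told apart.

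Trbv12-1 was the gene with the unadjusted p under 0.05. It was at -0.14 on the log2 scale (SE 0.06, edgeR adjusted p = 0.383). In experiment 2 its log2 ratio of sgElovl1 to sgNT CPM was -0.33 and in experiment 1 it was 0.01, so that the difference came from 1 experiment. The widest fold changes were those of genes with few counts. Trav13-2 had 22 and 19 counts in sgElovl1 cells against 6 and 7 counts in sgNT cells, a log2 fold change of 1.70 (SE 0.91, edgeR adjusted p = 0.506), and its groups did not overlap. Trav7-5 had 8 and 2 counts against 10 and 23 counts, a log2 fold change of -1.64 (SE 1.01, edgeR adjusted p = 0.597). Trav9-4 had 28 and 20 counts against 14 and 5 counts, a log2 fold change of 1.45 (SE 0.83, edgeR adjusted p = 0.549), without overlap in CPM. Such separation of the guides was not counted over all genes tested, so nothing is read from it. Next came Trav18 at -1.28 (SE 0.97, edgeR adjusted p = 0.704) and Trav14-3 at -1.11 (SE 0.59, edgeR adjusted p = 0.5001).

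For values of the whole loci the guides were compared over the columns, without regard to the experiment. The share of Trav counts outside the Trav14 family averaged 85.5% in sgElovl1 cells and 86.0% in sgNT cells (exact two-sided permutation test over columns, p = 1.0), and the share of Trbv counts outside the Trbv12 family averaged 0.443% in sgElovl1 cells and 0.329% in sgNT cells (exact permutation p = 0.667). Summed CPM of Trav averaged 19.0 in sgElovl1 cells and 21.9 in sgNT cells (exact permutation p = 0.667) and that of Trbv 234 in sgElovl1 cells and 257 in sgNT cells (exact permutation p = 1.0). With 2 columns against 2 the smallest p this test allows is 0.333, so that none of these comparisons could have passed the threshold. Within the experiments the summed Trav level was lower in sgElovl1 cells both times, at 21.4 against 25.6 CPM in experiment 2 and at 16.7 against 18.2 CPM in experiment 1, and the other 3 values differed in opposite directions in the 2 experiments.

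Between the experiments 8 of the 35 tested genes were called, 5 higher and 3 lower in experiment 2. Over all genes tested 55.6% were called, 26.4% higher and 29.2% lower. The share among the receptor variable genes was thus not above the background. These shares differ in power, because the receptor genes had a median SE of 0.79, against 0.11 over all genes tested. The median absolute log2 fold change was 0.59 in the receptor genes and 0.47 over all genes tested. With its sign, the median was 0.37 in the receptor genes, against 0.00 over all genes tested. The DESeq2 likelihood-ratio and Wald tests each called 4, 2 higher and 2 lower, and Trav15-1-dv6-1, Trav17, Trav4-4-dv10 and Trav16n lost the call, with DESeq2 adjusted p-values of 0.146 and 0.147, 0.0861 and 0.0863, 0.191 and 0.156, and 0.0830 and 0.0729, likelihood-ratio before Wald. With 1 column left out in turn the count ran from 3 to 10, and it was 3 without sgElovl1 of experiment 2 and 4 without sgNT of experiment 2. The mice, culture, sort and sequencing of an experiment cannot be told apart.

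The strongest rise was that of Trav14-2, a V alpha 2 gene, with 49 and 43 counts in experiment 2 (sgElovl1 and sgNT) against 9 and 4 counts in experiment 1. Its log2 fold change was 2.96 (SE 0.74, edgeR adjusted p = 1.67e-04). Trav3-3 rose to 1.99 and 2.12 CPM in experiment 2, against 0.736 and 0.912 CPM in experiment 1, by 1.34 on the log2 scale (SE 0.39, edgeR adjusted p = 0.00129). Trav15-1-dv6-1, which can also join delta chains, rose by 1.23 (SE 0.50, edgeR adjusted p = 0.0291) and Trav17 by 1.13 (SE 0.40, edgeR adjusted p = 0.00981) on the log2 scale. In these 4 genes the experiments did not overlap, which adds no support, because the same contrast picked them. The share of all genes tested without overlap is not given here. Trav4-4-dv10 had 27 and 22 counts in experiment 2 against 2 and 14 counts in experiment 1, a log2 fold change of 1.98 (SE 0.87, edgeR adjusted p = 0.0428). Its experiments did not overlap either. Without sgElovl1 of experiment 2 the edgeR adjusted p was 0.280 for Trav15-1-dv6-1, 0.127 for Trav17 and 0.380 for Trav4-4-dv10. Without sgNT of experiment 2 it was 0.0847 for Trav15-1-dv6-1, 0.0566 for Trav17 and 0.289 for Trav4-4-dv10, and without sgElovl1 of experiment 1 it was 0.207 for Trav4-4-dv10.

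Of the 3 genes that fell in experiment 2, 2 were d and n copies of the Trav16 family. Trav16d-dv11 had 1 and 5 counts in experiment 2 (sgElovl1 and sgNT) against 40 and 38 counts in experiment 1, a log2 fold change of -3.55 (SE 0.88, edgeR adjusted p = 1.58e-04). Trav16n had 6 and 3 counts in experiment 2 against 25 and 35 counts in experiment 1, a log2 fold change of -2.58 (SE 0.89, edgeR adjusted p = 0.00766), with an adjusted p of 0.0710 without sgElovl1 and 0.159 without sgNT of experiment 2. Trav16, the proximal gene of this family, moved the other way without passing the test, with 77 and 70 counts in experiment 2 against 44 and 61 counts in experiment 1 (log2 fold change 0.63, SE 0.42, edgeR adjusted p = 0.201). The transcripts of Trav16d-dv11 and Trav16n were 98.3% identical, with 13.7% and 10.6% of their windows shared between them, and those of Trav16 shared none.

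The third was Trbv12-1, at 190 and 239 CPM in experiment 2 (sgElovl1 and sgNT) against 275 and 274 CPM in experiment 1. It fell by 0.34 on the log2 scale (SE 0.06, edgeR adjusted p = 2.46e-07). By guide its log2 ratio of experiment 2 to experiment 1 was -0.54 in sgElovl1 cells and -0.20 in sgNT cells. Without the sgElovl1 column of experiment 2 the change was -0.22 (edgeR adjusted p = 0.128).

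**Figure D4:**
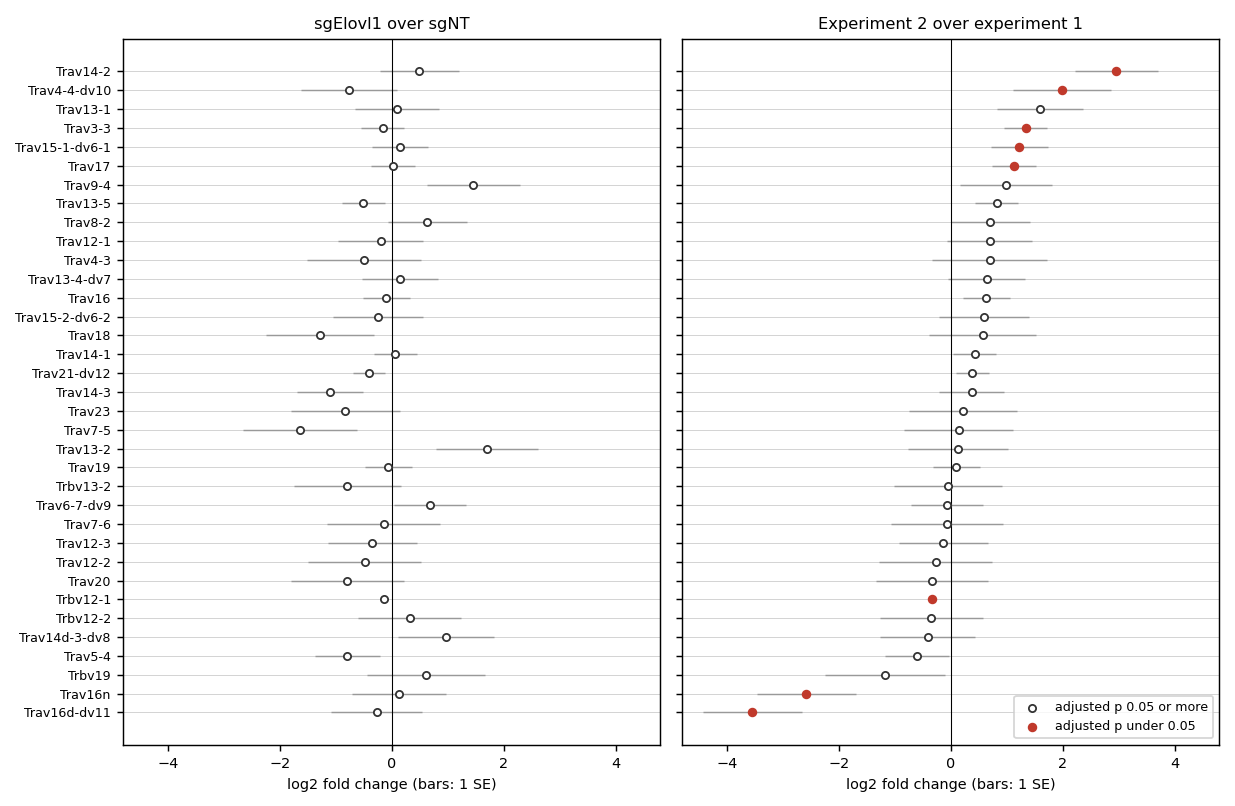
Log2 fold changes of the 35 tested Trav and Trbv genes from edgeR, sgElovl1 over sgNT on the left and experiment 2 over experiment 1 on the right, with bars of 1 SE and filled points for an adjusted p under 0.05. No point is filled on the left, and 8 are filled on the right, 5 above 0 and 3 below 0.

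Some genes were seen in 1 experiment alone. Trav3-1 had 0 counts in both columns of experiment 2, against 12 and 8 counts in experiment 1 (sgElovl1 and sgNT). Trav6d-7, Trav8d-2 and Trav9d-1, which are d copies, had 0 counts in experiment 2, against 7 and 12 counts in experiment 1 for each of the first pair and 5 and 10 counts for Trav9d-1. Trav15d-1-dv6d-1 was the reverse, with 3 and 3 counts in experiment 2 and 0 in experiment 1. These 5 genes were the ones with at least 3 counts in both columns of one experiment and 0 in both of the other, and they did not pass the filter for testing. The rule was applied to the Trav and Trbv genes only, so nothing particular to them is read from this count.

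The constant genes, which every receptor transcript carries, moved in different directions between the experiments. Trac, the alpha constant gene, was at 685 and 769 CPM in experiment 2 (sgElovl1 and sgNT) against 1052 and 1063 CPM in experiment 1, and fell by 0.52 on the log2 scale (SE 0.07, edgeR adjusted p = 5.73e-13). Trbc1, the first beta constant gene, rose by 0.93 (SE 0.07, edgeR adjusted p = 5.38e-39) and Trbc2, the second, by 0.31 (SE 0.07, edgeR adjusted p = 4.15e-05) on the log2 scale. None of these 3 constant genes was called between the guides, against 1.2% of all genes tested. Of the CD3 chains and co-receptors, which carry the signal of the receptor or bind its presenting molecule, Cd3d (0.32), Cd3g (0.16), Cd247 (0.61), Cd8a (0.48) and Cd8b1 (0.46) rose in experiment 2 on the log2 scale, and Cd3e (0.04, edgeR adjusted p = 0.646) was not called. Over all genes tested, 26.4% were called higher in experiment 2.

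Ratios of counts within a column showed which of these genes moved together. Trbv12-1 had 27.7 and 31.1 counts per 100 Trac counts in experiment 2 (sgElovl1 and sgNT) and 26.1 and 25.8 in experiment 1. Per 100 counts of Trbc1 and Trbc2 it had 8.36 and 10.7 in experiment 2 and 16.9 and 18.5 in experiment 1. So it kept close to Trac between the experiments and not to the constant genes of its own chain. All Trav genes together had 3.12 and 3.33 counts per 100 Trac counts in experiment 2 and 1.58 and 1.71 in experiment 1. Trbc1 had 83.8 and 81.1 counts per 100 Trbc2 counts in experiment 2 and 53.8 and 53.8 in experiment 1. In each of these ratios other than the first the experiments differed by more than the guides within them. The genes differ in length, so that such a ratio is not one of molecules.

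**Figure D5:**
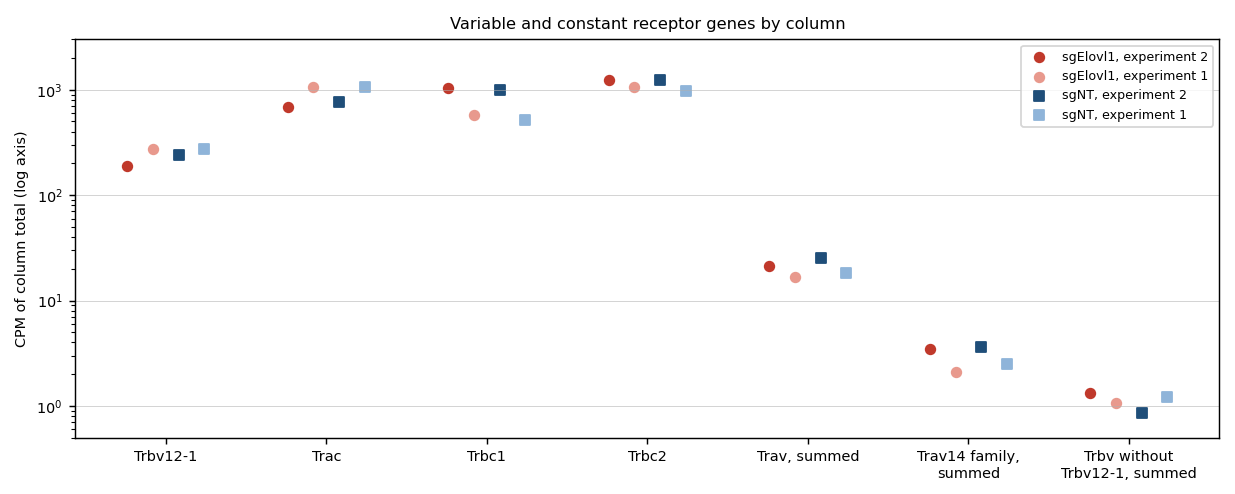
CPM on a log axis of Trbv12-1, the constant genes Trac, Trbc1 and Trbc2, and the summed Trav genes, Trav14 family and Trbv genes other than Trbv12-1, 1 point per column, sgElovl1 as circles and sgNT as squares, dark for experiment 2 and light for experiment 1. Trbv12-1 and Trac were lower in experiment 2, at 190 and 239 CPM and at 685 and 769 CPM, and Trbc1 and the summed Trav genes were higher.

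Other variable loci give a scale for these levels. The 6 delta variable genes (Trdv), which lie in the same locus as the Trav genes, were all detected, at 9.52 and 10.5 CPM in sgElovl1 cells against 10.5 and 8.99 CPM in sgNT cells of experiments 2 and 1. The 7 gamma variable genes (Trgv) were at 1.20 and 4.11 CPM against 1.67 and 4.23 CPM. The 183 immunoglobulin heavy chain variable genes, which B cells use, summed to 0.122 to 0.252 CPM over the columns, 5 of them detected, and the 160 kappa genes to at most 0.0969 CPM. The summed Trav level was thus above that of the immunoglobulin variable genes, though not above that of Ighm given earlier, and the summed Trbv level without Trbv12-1, 1.32 and 1.07 CPM in sgElovl1 cells against 0.856 and 1.21 CPM in sgNT cells, lay between those of the Trav and the immunoglobulin variable genes. Of the genes of recombination, Rag1 and Rag2, which cut the receptor loci in developing lymphocytes, had no count in any column. The donors were bred from Rag2/OT-I mice, and the part of that breeding in the Rag2 count was not tested. Dntt, which adds bases at the joints, had 560 and 336 counts in sgElovl1 cells against 434 and 321 counts in sgNT cells, and rose in experiment 2 by 0.72 on the log2 scale (SE 0.15, edgeR adjusted p = 7.93e-06).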

How the data were processed

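RNA of 8 samples was sequenced by the authors as strand-specific, paired-end mRNA libraries. As its methods and the submitters' processing notes state, reads were aligned with STAR 2.7.10b to GRCm39 (mm39) and counted with featureCounts 2.0.1 in R 4.3.3 across the full gene, exons and introns, with reverse-stranded assignment, and counts of replicate mice were merged. No source at hand gives the handling of reads with several alignments. The authors deposited raw counts, not normalized, for 56805 gene symbols in 4 columns, and tested them with DESeq2 1.42.0.

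Here counts were divided by the column total (CPM), and shares were taken within Trav or Trbv with Wilson 95% intervals, which cover counting error only, as do floors of 3 counts. Genes kept by filterByExpr (16006) received TMM factors and entered a quasi-likelihood fit and F test (edgeR 4.0.16), with guide and experiment as terms, Benjamini-Hochberg adjustment and a threshold of 0.05. The fit had 1 residual degree of freedom, so p-values and SE rest on the dispersion trend of all genes (coefficient of variation 6.98%). They do not measure the spread of a single gene between the 4 columns, nor that between mice, whose counts were merged. Single values per column were compared with exact two-sided permutation tests. The fit was tested on simulated data.

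The genes named were the Trav14 and Trbv12 families, up to 12 Trav and 12 Trbv genes with the highest mean CPM, called genes, and the constant, CD3, CD8 and recombination genes. Others (the wide fold changes between the guides, Trbv3, Trbv15, Trbv31 and genes seen in 1 experiment) were chosen after their values were seen. The members and lists were chosen with earlier results of these data known. Names, gene order, biotype and length came from RefSeq GRCm38.p6 (165 of 165 genes matched) and transcripts from GENCODE M21 of GRCm38 (163 of 165), a different build from that of the authors, so no coordinates are given. Alternatives were DESeq2 size factors, DESeq2 likelihood-ratio and Wald tests, no filter, a mean of at least 1 CPM, counts summed by family, fits without the second term, counts per length, a minimum of 10 counts, and each column left out. Leaving out columns in the contrast of the experiments was added after seeing the data. Python 3.11.15, pandas 2.3.3, scipy 1.17.1, Biopython 1.88 and matplotlib 3.10.9 were used.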

Additional observations from a re-analysis of the deposited data

Results flagged for a closer look

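In 3 values of the whole loci the 2 experiments differed in direction between the guides, and the difference between the experiments was not tested, because each experiment had 1 column per guide. The share of Trav counts outside the Trav14 family was -2.13 percentage points in experiment 2 and 1.01 in experiment 1 (sgElovl1 minus sgNT). The share of Trbv counts outside the Trbv12 family was 0.286 percentage points in experiment 2 and -0.0585 in experiment 1. The summed Trbv level differed by -48.6 CPM in experiment 2 and by 1.2 CPM in experiment 1.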

How the results depend on the processing

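No paired analysis was possible because each column sums both replicate mice of an experiment, so that no column carries a replicate number; the columns were paired by experiment through the experiment term. The count of called Trav and Trbv genes between the guides was 0 under every alternative run, of which several could call little: over all genes, 0 to 6 were called with 1 column left out, 0 with no experiment term, and 23 and 24 by DESeq2, which gave an adjusted p for 1 of the receptor genes. Over all genes 94 were called with no filter (98 receptor genes tested), 176 with DESeq2 size factors and 263 with a mean of at least 1 CPM. Between the experiments, the count of 8 became 4 with a mean of at least 1 CPM (8 genes tested), with the DESeq2 likelihood-ratio test and with the DESeq2 Wald test, and ran from 3 to 10 with 1 column left out. The other settings gave 6 to 9. The share of Trav counts outside the Trav14 family, sgElovl1 minus sgNT, was -0.56 percentage points, 1.60 with genes of at least 10 counts in every column, and -2.42 to 1.30 with 1 column left out. With 1 column left out, the summed Trav CPM difference ran from -6.56 to 0.867, the share outside the Trbv12 family from -0.0273 to 0.255 percentage points, and the summed Trbv CPM difference from -66.2 to 18.9. Among shares with no test, Trav21-dv12 held 11.2% of the Trav counts, 7.97% per length and 16.1% among genes of at least 10 counts in every column, where Trbv12-1 and its family held 100% of the Trbv counts. With at least 10 counts in a column, 40 Trav and 6 Trbv genes were detected in place of 62 and 14.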

Other observations

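The joining genes of the beta locus lie between the variable and the constant genes, Trbj1 before Trbc1 and Trbj2 before Trbc2. All 7 Trbj1 genes had a log2 fold change of experiment 2 over experiment 1 above 0, with a median of 0.52, and 5 of the 7 were called higher (edgeR), against 26.4% of all genes tested. Over all 16006 genes tested, 7979 had a log2 fold change above 0. The summed Trbj1 level was 68.4 and 79.0 CPM in experiment 2 (sgElovl1 and sgNT) against 44.3 and 45.0 CPM in experiment 1. Of the 7 Trbj2 genes 4 were above 0, with a median of 0.58, none was called higher and 2 were called lower, Trbj2-1 and Trbj2-3, against 29.2% of all genes tested. The summed Trbj2 level was 12.9 and 15.8 CPM in experiment 2 against 17.3 and 17.97 CPM in experiment 1, with Trbj2-1 alone at 6.16 and 8.40 CPM against 9.98 and 10.8 CPM. A difference between the Trbj1 and Trbj2 genes was not tested. Trgc1, the first gamma constant gene, fell in experiment 2 by 1.38 on the log2 scale (SE 0.07, edgeR adjusted p = 4.28e-75). No Trbj gene was called between the guides (edgeR, 1 of 14 with an unadjusted p under 0.05), against 1.2% of all genes tested.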
